A study of Mus musculus with 10 samples.

Results

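The 10 genes described here, Arg1, Nos2, Mrc1, Chil3, Retnla, Il10, Cd163, Spp1, Trem2 and Vsir, are those most often used to sort macrophages into activation states, and they were picked by name out of the 45706 gene identifiers in a matrix of 3′ RNA sequencing counts. The libraries came from bulk tumors taken 4 days after Braf V600E-driven melanoma cells were implanted into C57BL/6 hosts aged 8 weeks. Of the 10 tumors, 4 grew from wildtype, COX-competent cells (Ptgs+/+) and 3 from cells deficient for Ptgs1 and Ptgs2 (Ptgs-/-), both in mice labelled untreated, and 3 grew from the same Ptgs1/Ptgs2-deficient cells in NK cell-depleted hosts (NK-depleted Ptgs-/-), which were given 200 µg of anti-NK1.1 (PK136) and 30 µg of anti-asialo GM1 on days 0 and 2. Only the implanted cells carried the deletions, so the host cells of every tumor kept both COX genes, and the labels name no control antibody for the other 2 groups. All 10 genes passed the filter on low counts and were tested beside 14550 genes in all.

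Macrophages exposed to IL-4 or IL-13 turn on a program through the transcription factor STAT6 that is called alternative activation, and in mice its best known products are the arginine-degrading enzyme Arg1, the mannose receptor Mrc1, the chitinase-like protein Chil3 and the secreted resistin-like protein Retnla. Interferon-γ and bacterial products instead drive classical activation, of which the nitric oxide synthase Nos2, which competes with Arg1 for arginine, is the usual mark. The remaining genes mark states seen in tumors and resting tissue: the anti-inflammatory cytokine Il10, the haemoglobin scavenger receptor Cd163, the secreted matrix protein osteopontin (Spp1), the lipid-sensing receptor Trem2 and the inhibitory receptor VISTA (Vsir).

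Library totals ran from 8150556 to 12839174 counts, and a count of 0 allowed a level of up to 3 counts, or 0.234 to 0.368 CPM, the counts scaled to a common library total. The targeted genes were lower in Ptgs-/- than in Ptgs+/+ tumors, Ptgs2 by 2.62 and Ptgs1 by 0.76 on the log2 scale (log2 fold changes of -2.62 and -0.76, SE 0.46 and 0.13, adjusted p = 0.00229 and 0.00202). Host cells also carry both transcripts and the 3′ tags may lie outside the edited exons, so these levels do not check the deletion itself. The NK cell gene Ncr1 had 0 counts in all 3 NK-depleted tumors against 20 to 77 counts in Ptgs-/- tumors. Of 9 melanocyte markers only 2 passed the filter, and the pigment genes Tyr, Tyrp1, Mlana, Gpr143 and Slc45a2 were at or under the limit of 3 counts in every library, so the defining pigment genes of the labelled melanoma were absent or nearly so. The summed level of 14 macrophage markers was 2664 to 3312 CPM in Ptgs+/+, 4486 to 6762 CPM in Ptgs-/- and 4178 to 4243 CPM in NK-depleted Ptgs-/- tumors. In bulk tumors, more cells of a type and more RNA per cell cannot be told apart.

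The stretches upstream of 3 of these genes are shown because their levels parted company: Retnla and Spp1 moved in opposite directions, and Chil3, which is induced with Retnla in alternative activation, did not pass the test in any comparison. They are from RefSeq on GRCm38.p6, which held 7 of the 10 genes (Arg1, Nos2 and Il10 are the others), and run 5′ to 3′ on the gene's own strand to the base before the annotated start: chr16:48842359-48842550 (+) for Retnla, chr3:106167565-106167814 (-) for Chil3 and chr5:104434861-104435110 (+) for Spp1. Capitals mark matches to the STAT6-type motif TTCNNNNGAA, the cAMP response element TGACGTCA, the RUNX-type motif AACCACA and the TATA box TATAAA, each searched on both strands.
Retnla: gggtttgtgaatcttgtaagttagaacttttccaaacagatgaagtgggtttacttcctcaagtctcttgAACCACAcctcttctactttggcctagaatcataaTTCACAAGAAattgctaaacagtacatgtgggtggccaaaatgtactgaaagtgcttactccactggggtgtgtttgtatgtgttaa
Chil3: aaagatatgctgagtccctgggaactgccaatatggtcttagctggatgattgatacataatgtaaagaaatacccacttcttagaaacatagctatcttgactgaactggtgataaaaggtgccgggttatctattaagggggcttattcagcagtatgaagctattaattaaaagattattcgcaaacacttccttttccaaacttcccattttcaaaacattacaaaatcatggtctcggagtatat
Spp1: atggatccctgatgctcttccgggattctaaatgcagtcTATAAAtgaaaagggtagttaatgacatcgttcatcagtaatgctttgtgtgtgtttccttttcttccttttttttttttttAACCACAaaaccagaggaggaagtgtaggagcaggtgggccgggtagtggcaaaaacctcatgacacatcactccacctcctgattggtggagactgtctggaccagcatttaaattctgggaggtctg

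The Retnla stretch held a STAT6-type match (TTCACAAGAA) and a RUNX-type match, and the Spp1 stretch a RUNX-type match and a TATA box match far from the start. Among 32851 promoter windows of 250 bases, the length of the Chil3 and Spp1 stretches, 5.85% held the STAT6-type motif, 4.40% the RUNX-type motif, 12.4% the TATA box and 1.55% the cAMP response element. The Retnla stretch was shorter, 192 bases. In the first 192 bases of the same windows, which end short of their RefSeq start, the shares were 4.58% for the STAT6-type and 3.36% for the RUNX-type motif. The same search found no match in the stretches of Chil3, Mrc1, Cd163, Trem2 and Vsir. Other spacings between TTC and GAA were not searched, and the Chil3 stretch holds ttcttagaa, which has a shorter spacer. The difference between Retnla and Chil3 thus holds only for the motif searched. A match describes letters only, and binding was not measured.

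To ask how COX deficiency in the cancer cells altered the macrophage genes, Ptgs-/- tumors were compared with Ptgs+/+ tumors. The 10 genes were chosen with earlier results of these data known, and the shares of all genes do not allow for that. At an adjusted p of 0.05 or less, 5 of the 10 genes differed, beside 23.1% of all genes tested. Retnla, Il10, Trem2 and Vsir rose and Spp1 fell. With the added requirement of a log2 fold change of 1.5 or more in either direction, Retnla, Il10 and Spp1 remained, 3 of 10 beside 4.15% of all genes. Arg1, Nos2, Mrc1, Chil3 and Cd163 did not pass. The median log2 fold change of the 10 genes was 0.26, against -0.01 for all genes.

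**Figure D1:**
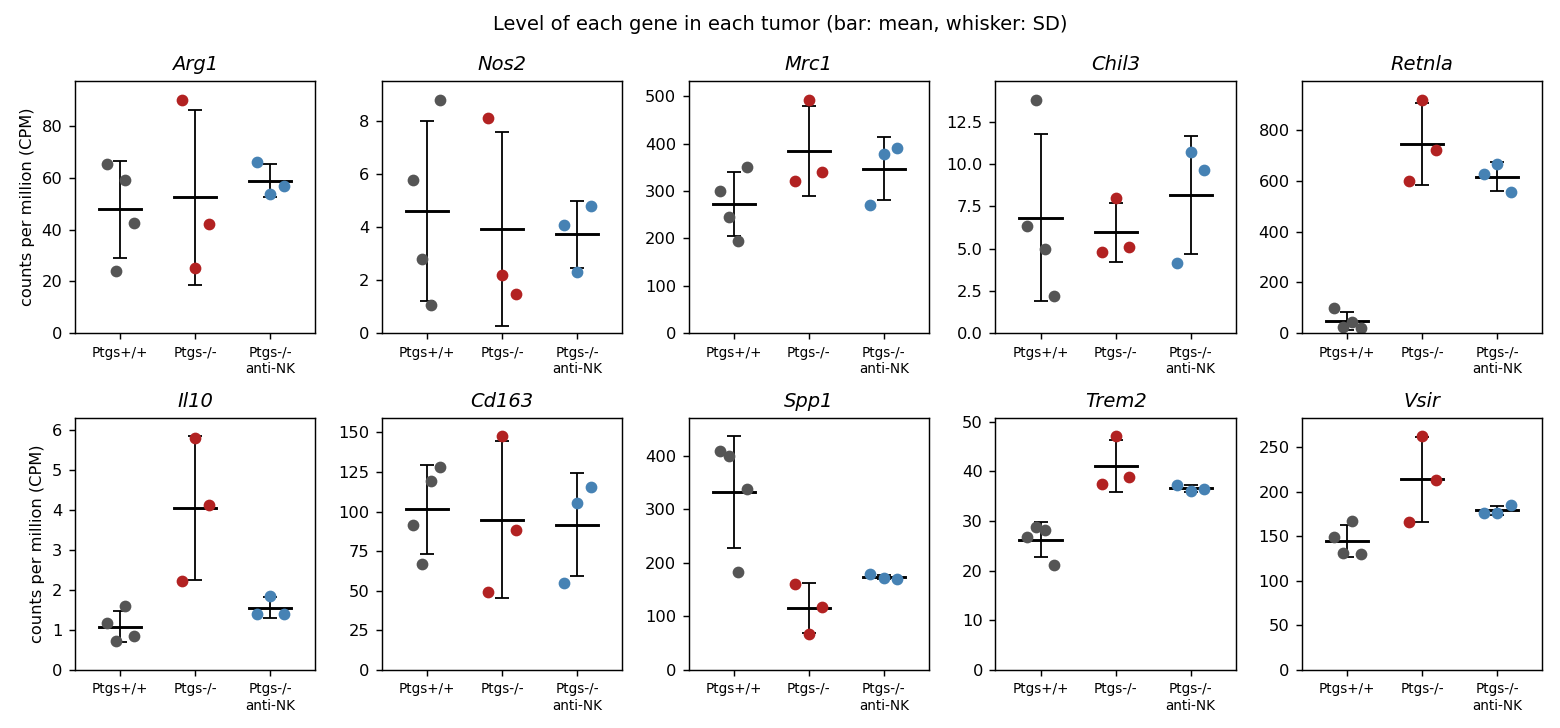
Level of each of the 10 genes in CPM (vertical axes, from 0) in every tumor, with Ptgs+/+ in grey, Ptgs-/- in red and NK-depleted Ptgs-/- (anti-NK) in blue; bars are means and whiskers SD. Retnla sat between 18 and 96.9 CPM in the Ptgs+/+ tumors and between 555 and 919 CPM in the 6 Ptgs-/- tumors, whereas Arg1 and Nos2 overlapped in all groups.

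Among the alternative activation genes, Retnla (ENSMUSG00000061100, chr16:48842551-48844461) stood apart. It measured 96.9, 25.1, 44.4 and 18 CPM in the Ptgs+/+ tumors, 598, 919 and 720 CPM in the Ptgs-/- tumors and 626, 668 and 555 CPM in the NK-depleted Ptgs-/- tumors. Every Ptgs-/- tumor, depleted or not, lay far above the highest Ptgs+/+ tumor, and the lower Ptgs+/+ levels differed among themselves by up to 5.38-fold. The log2 fold change of Ptgs-/- over Ptgs+/+ was 3.95 (SE 0.46, 95% interval 2.94 to 4.95, adjusted p = 0.00025), a 15.4-fold difference that ranked 12 from the top of 14550 genes. Ptgs+/+ replicate 1 held the highest of the low values, and without it the log2 fold change was 4.63 (adjusted p = 5.39e-05).

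Markers of other cells moved with Retnla, those of eosinophils among them. The 7 eosinophil markers summed to 4.64 to 7.53 CPM in Ptgs+/+, 20.5 to 39.4 CPM in Ptgs-/- and 26.0 to 39.5 CPM in NK-depleted Ptgs-/- tumors. In both Ptgs-/- groups most of that sum was Ear2, an eosinophil-associated ribonuclease that macrophages can also express, at means of 1.72, 21.5 and 19.1 CPM, while Epx was at 0 in every library and Ear1 and Il5ra were at or under 3 counts. Their part in the Retnla difference was not tested. No stretch of 50 bases in the last 500 of the Retnla transcript occurred in a transcript of another gene.

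The other products of the IL-4 program among the 10 genes, Chil3, Mrc1 and Arg1, did not pass the test. Chil3 (ENSMUSG00000040809, chr3:106147554-106167564) measured 6.31, 13.8, 5.00 and 2.20 CPM in Ptgs+/+ tumors, 4.79, 7.97 and 5.11 CPM in Ptgs-/- tumors and 4.17, 10.7 and 9.64 CPM in NK-depleted ones, and the 3 groups overlapped. Its log2 fold change for Ptgs-/- over Ptgs+/+ was -0.26 with an interval of -1.38 to 0.86, so these tumors left room for any fall or rise inside that interval. Of the 50-base stretches in the last 500 bases of the Chil3 transcript, 17.1% also occurred in Chil4 or Gm6522, which makes its counts less certain.

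Mrc1 (ENSMUSG00000026712, chr2:14229392-14332057), the endocytic receptor CD206, measured 301, 245, 194 and 351 CPM in Ptgs+/+ tumors, 320, 493 and 340 CPM in Ptgs-/- tumors and 271, 378 and 391.7 CPM in NK-depleted ones. The groups overlapped, and the log2 fold change for Ptgs-/- over Ptgs+/+ was 0.44 (interval -0.02 to 0.90, adjusted p = 0.155).

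The arginine enzymes did not separate the tumors. Arg1 (ENSMUSG00000019987, chr10:24915221-24927484) measured 65.5, 23.9, 59.3 and 42.5 CPM in Ptgs+/+ tumors, 90.2, 25 and 42.0 CPM in Ptgs-/- tumors and 66.1, 53.9 and 56.7 CPM in NK-depleted ones. Nos2 (ENSMUSG00000020826, chr11:78920787-78960254) measured 5.76, 2.78, 1.05 and 8.79 CPM in Ptgs+/+ tumors, 8.10, 2.17 and 1.46 CPM in Ptgs-/- tumors and 4.07, 2.31 and 4.77 CPM in NK-depleted ones. Both ranges of the Ptgs-/- tumors overlapped those of the Ptgs+/+ tumors, and the spread inside a group exceeded the distance between group means. The log2 fold change for Ptgs-/- over Ptgs+/+ was 0.07 for Arg1 (interval -0.79 to 0.93, adjusted p = 0.921), and it was -0.31 for Nos2 (interval -1.77 to 1.15, adjusted p = 0.775). The ratio of Arg1 to Nos2 counts, often read as a balance between the programs, ran from 4.83 to 56.3 in Ptgs+/+, from 11.1 to 28.8 in Ptgs-/- and from 11.9 to 23.4 in NK-depleted Ptgs-/- tumors, so it overlapped in all 3 groups.

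Il10 (ENSMUSG00000016529, chr1:131019845-131024974) was scarce and rose with COX deficiency. It had 15, 7, 18 and 8 counts in the Ptgs+/+ tumors, 18, 56 and 45 counts in the Ptgs-/- tumors and 13, 20 and 14 counts in the NK-depleted ones. As CPM these were 1.17, 0.722, 1.58 and 0.837, then 2.21, 5.79 and 4.10, then 1.39, 1.85 and 1.39. The Ptgs-/- tumors lay above both other groups without overlap, although Ptgs-/- replicate 1 came close to them. The log2 fold change of Ptgs-/- over Ptgs+/+ was 1.83 (SE 0.36, interval 1.03 to 2.62, adjusted p = 0.00448), and without Ptgs-/- replicate 2 it was 1.48, under the fold threshold (adjusted p = 0.0251). Several marker sums were highest in Ptgs-/- tumors by median, as Il10 was. They were those of macrophages, monocytes, dendritic, NK and T cells, eosinophils, fibroblasts, keratinocytes and melanocytes. Those of neutrophils, mast cells and basophils, B cells, endothelium, muscle and adipocytes were not. The 9 NK cell markers summed to 18.1 to 42.0 CPM in Ptgs+/+, 84.5 to 175 CPM in Ptgs-/- and 9.10 to 10.0 CPM in NK-depleted Ptgs-/- tumors, the last with Ncr1 and Prf1 at 0, and the 8 T cell markers to 6.78 to 10.0, 23.1 to 64.0 and 15.9 to 18.8 CPM. Of those tested, 7 of 8 NK cell and 6 of 7 T cell markers rose in Ptgs-/- over Ptgs+/+ tumors, and 8 of 8 and 1 of 7 fell after NK depletion. After NK depletion the T cell sums lay above the Ptgs+/+ range and the NK cell sums below it, while Il10 overlapped it. The part of these cells in the Il10 differences was not tested.

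Cd163 (ENSMUSG00000008845, chr6:124304656-124330527), which IL-10 can induce in macrophages, measured 91.4, 66.7, 119 and 128 CPM in Ptgs+/+ tumors, 49.2, 148 and 88.2 CPM in Ptgs-/- tumors and 54.7, 105 and 116 CPM in NK-depleted ones. The widest spread was inside the Ptgs-/- group, which covered the whole Ptgs+/+ range, and the log2 fold change was -0.15 (interval -0.91 to 0.62, adjusted p = 0.799).

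Spp1 (ENSMUSG00000029304, chr5:104435118-104441050) was the only one of the 10 genes to fall. It measured 409, 400, 183 and 338 CPM in the Ptgs+/+ tumors, 160, 67.5 and 118 CPM in the Ptgs-/- tumors and 178, 172 and 170 CPM in the NK-depleted ones. All Ptgs-/- tumors lay below the lowest Ptgs+/+ tumor, and the NK-depleted tumors fell in the gap between those groups. The log2 fold change of Ptgs-/- over Ptgs+/+ was -1.59 (SE 0.30, interval -2.25 to -0.93, adjusted p = 0.00351), and it ranked 164 from the bottom of all genes. It stayed past an adjusted p of 0.05 when any 1 library was left out, but its size dropped under the fold threshold without Ptgs+/+ replicate 1 (-1.46), Ptgs+/+ replicate 2 (-1.48) or Ptgs-/- replicate 2 (-1.31). Tumor cells and fibroblasts can also make osteopontin. The 7 fibroblast markers summed to 7619 to 10611 CPM in Ptgs+/+ and 13745 to 17135 CPM in Ptgs-/- tumors, opposite to Spp1, and 12 neutrophil markers to 444 to 679 CPM and 111 to 165 CPM, in the same direction as Spp1; their part in it was not tested.

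Trem2 (ENSMUSG00000023992, chr17:48346401-48354147) measured 26.7, 28.8, 28.3 and 21 CPM in Ptgs+/+ tumors, 37.4, 47.1 and 38.8 CPM in Ptgs-/- tumors and 37.3, 36 and 36.5 CPM in NK-depleted ones. It was higher in every Ptgs-/- tumor than in any Ptgs+/+ tumor, and its log2 fold change was small, 0.59 (SE 0.14, interval 0.29 to 0.89, adjusted p = 0.0098), which is a 1.5-fold difference.

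Vsir (ENSMUSG00000020101, chr10:60346851-60372684) measured 149, 131, 167 and 129 CPM in Ptgs+/+ tumors, 166, 262 and 213 CPM in Ptgs-/- tumors and 176, 175 and 185 CPM in NK-depleted ones. Ptgs-/- replicate 1 overlapped the Ptgs+/+ range. The log2 fold change was 0.51 (SE 0.15, interval 0.19 to 0.83, adjusted p = 0.0265). The call was lost without Ptgs+/+ replicate 2 (adjusted p = 0.0729), Ptgs+/+ replicate 4 (0.0624) or Ptgs-/- replicate 2 (0.104), and among libraries of experiment code EB046 alone (0.0912). Vsir lies inside Cdh23 on the opposite strand, which had 231 counts over the 10 libraries and shares no exon with it.

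Among the 10 genes, 4 did not overlap between the Ptgs-/- and Ptgs+/+ tumors (Retnla, Il10 and Trem2 higher, Spp1 lower), beside 30.6% of all genes. The titles give 2 experiment codes. Within EB046, which held 3 Ptgs+/+ and 2 Ptgs-/- tumors, the log2 fold changes were 3.75 for Retnla (adjusted p = 0.00199), 1.76 for Il10 (0.0338), 0.58 for Trem2 (0.0236) and -1.57 for Spp1 (0.0323). The code EB042 held 1 tumor of each group and gave no test.

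**Figure D2:**
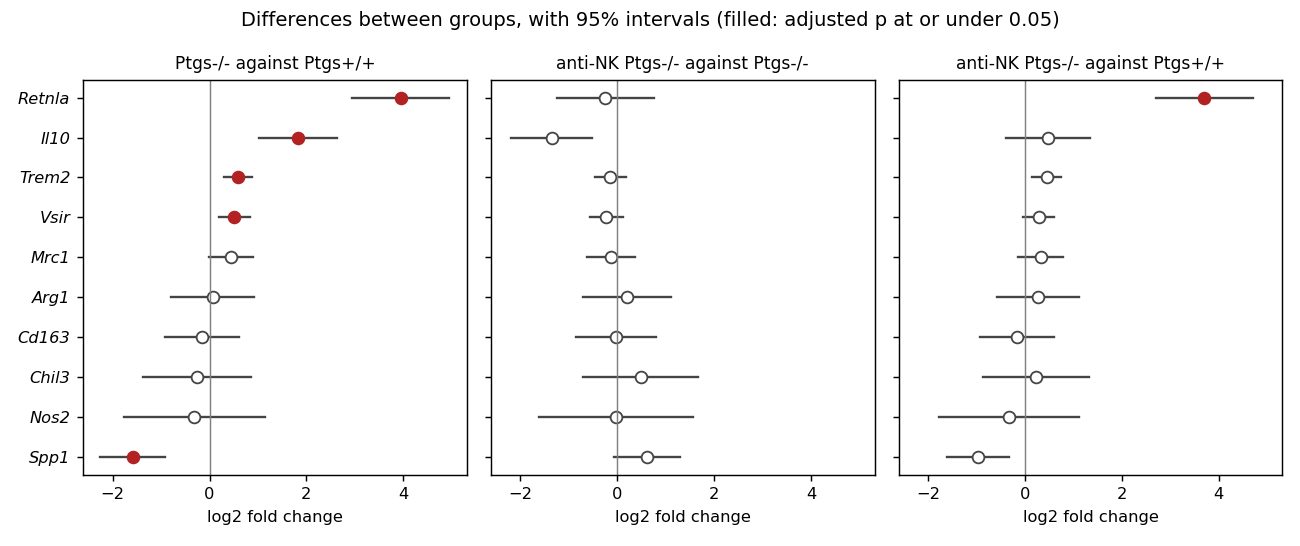
Log2 fold change of each gene (points) with its 95% interval (lines) in the 3 comparisons, from edgeR's quasi-likelihood fit; filled red points have an adjusted p of 0.05 or less over all genes tested. Retnla stands at 3.95 and 3.70 in both comparisons with Ptgs+/+ tumors and at -0.25 between the Ptgs-/- groups, and no point is filled in that middle panel.

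To ask whether NK cells were needed for these levels, NK-depleted Ptgs-/- tumors were compared with Ptgs-/- tumors. The comparisons share tumors with one another, so their values are given side by side and not as independent evidence. With edgeR's quasi-likelihood test 0 of the 10 genes passed an adjusted p of 0.05, beside 1.44% of all genes, and 0 passed with the fold threshold added, beside 1.15%. Il10 was the only one with an unadjusted p under 0.05. DESeq2 also called 0, and edgeR's likelihood ratio test called 1, Il10.

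For Il10 the log2 fold change of NK-depleted over intact Ptgs-/- tumors was -1.36 (SE 0.39, interval -2.20 to -0.51, adjusted p = 0.162), with the 3 depleted tumors below the 3 intact ones. Over the other ways of fitting, its adjusted p ran from 0.0329 to 0.524, and it passed without Ptgs-/- replicate 1 (log2 fold change -1.63, adjusted p = 0.0329) and under the likelihood ratio test (0.0448). Against Ptgs+/+ tumors, NK-depleted Ptgs-/- tumors differed in Il10 by 0.47 (interval -0.40 to 1.34, adjusted p = 0.503), with overlapping ranges.

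Retnla stayed high after NK depletion. Its log2 fold change between the Ptgs-/- groups was -0.25 (interval -1.25 to 0.75, adjusted p = 0.875), and against Ptgs+/+ tumors the NK-depleted tumors were higher by 3.70 on the log2 scale (SE 0.46, interval 2.70 to 4.70, adjusted p = 0.000363). Without Ptgs+/+ replicate 1 that difference was 4.37. It was the only one of the 10 genes called in that comparison, beside 12.5% of all genes, and also the only one past the fold threshold, beside 2.71%.

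For Spp1 the NK-depleted tumors stood 0.62 above the intact Ptgs-/- tumors on the log2 scale (interval -0.06 to 1.3, adjusted p = 0.509) and 0.97 below the Ptgs+/+ tumors (log2 fold change -0.97, interval -1.62 to -0.33, adjusted p = 0.0524). Trem2 differed from Ptgs+/+ by 0.45 (interval 0.15 to 0.75, adjusted p = 0.0535). Both missed the threshold narrowly. Spp1 passed without Ptgs+/+ replicate 3 (0.00851), Ptgs-/- replicate 1 (0.0302) or Ptgs-/- replicate 2 (0.0281), and Trem2 without Ptgs+/+ replicate 3 (0.0441) or Ptgs-/- replicate 2 (0.0389).

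As CPM, groups did not overlap for 3 genes between NK-depleted and intact Ptgs-/- tumors (Il10 and Trem2 lower, Spp1 higher), beside 17.6% of all genes, and for 4 between NK-depleted Ptgs-/- and Ptgs+/+ tumors (Retnla, Trem2 and Vsir higher, Spp1 lower), beside 27.1%. Of these, Trem2 in the first comparison and Vsir in the second lay the other way per macrophage marker level, and Trem2 in the second overlapped. The NK-depleted tumors held more muscle RNA, with 8 skeletal muscle markers summing to 2275 to 5472 CPM against 110 to 371 CPM in intact Ptgs-/- and 32.9 to 172 CPM in Ptgs+/+ tumors, and all 8 rose. Its part in these values was not tested. All NK-depleted tumors carried the code EB046, while the other groups held 1 tumor each of the code EB042.

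Inside the Ptgs-/- group, each of the 10 genes was highest in replicate 1 or 2, and Nos2 was lowest in replicate 3. This describes the order of 3 tumors, and the share of all genes with such orders was not computed. Ptgs-/- replicate 1 held the highest Arg1, Nos2 and Spp1 of its group and the lowest of the other 7 genes, and Ptgs-/- replicate 2 held the highest of those 7 and the lowest Arg1 and Spp1. Replicate 1 also had the lowest macrophage marker sum of the group (4486 CPM, against 6762 and 5671 CPM) and the lowest adipocyte marker sum (405 CPM, against 2261 and 4976 CPM). The NK-depleted group had the smallest coefficient of variation of any group for all of the genes but Chil3 and Cd163. For Spp1 and Trem2 it was 2.52% and 1.90%, against 40.3% and 12.7% in intact Ptgs-/- tumors. For Chil3 it was 42.9%, against 29.4% in intact Ptgs-/- tumors, and for Cd163 35.5%, against 27.6% in Ptgs+/+ tumors.

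Since 11 of 14 macrophage markers rose in Ptgs-/- over Ptgs+/+ tumors (median log2 fold change 0.91), each gene was also expressed per summed macrophage marker level, as a description. On that scale only Retnla and Il10 were above the Ptgs+/+ mean in Ptgs-/- tumors, by 3.39 and 0.95 log2 units, both without overlap. Spp1 was below it by 2.46 (log2 difference -2.46), Cd163 by 1.10 (-1.10) and Vsir by 0.36 (-0.36), also without overlap. The marker sum itself did not overlap between any of the groups, so a gene with the same CPM in all of them differs on this scale. Cd163 as CPM overlapped between these groups (log2 fold change -0.15). The share of all genes without overlap on this scale was not computed. Trem2, at -0.26, overlapped, as did Arg1 (-0.88), Nos2 (-1.15), Mrc1 (-0.41) and Chil3 (-0.85). Vsir therefore stood higher as CPM and lower per macrophage marker level. Per marker level, the NK-depleted tumors differed from Ptgs+/+ tumors by 3.53 for Retnla and by 0.06 for Il10, the latter with overlap, and Vsir was again lower (-0.19, without overlap). Between the Ptgs-/- groups, Trem2 and Vsir stood 0.24 and 0.17 higher per marker level after NK depletion, without overlap, where as CPM they stood lower by mean. With Lyz2 and Cd14 left out of the marker sum, both overlapped (0.18 and 0.11).

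**Figure D3:**
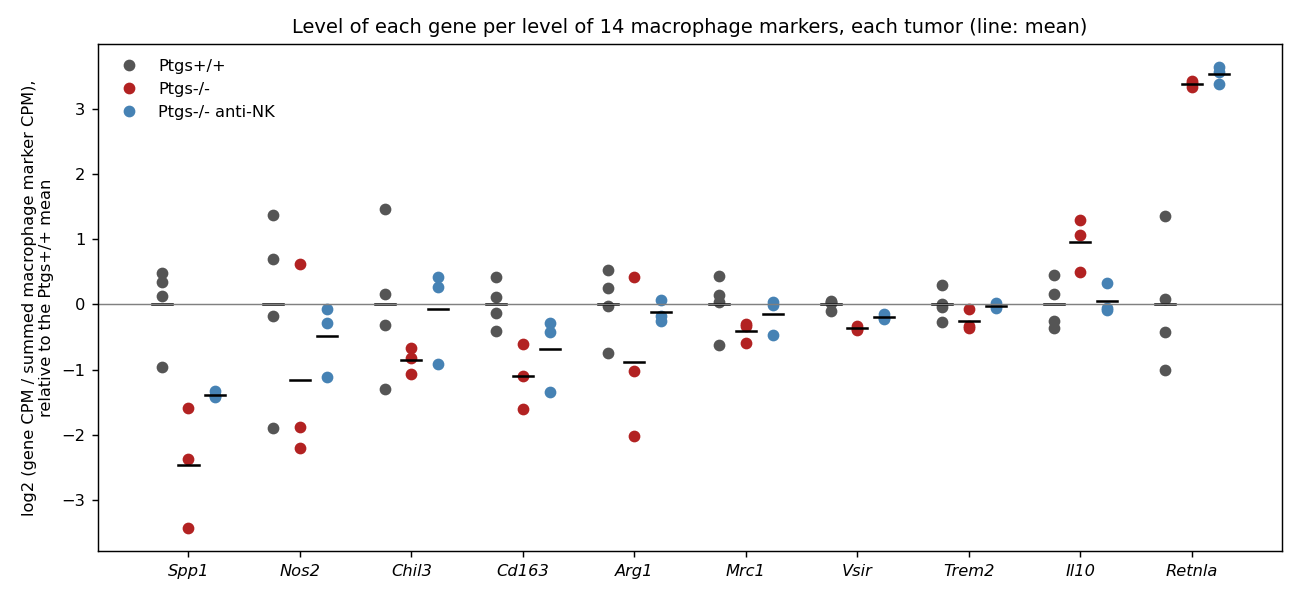
Log2 ratio of each gene's CPM to the summed CPM of 14 macrophage markers in every tumor (points), relative to the Ptgs+/+ mean (0), with group means as lines. Retnla stands 3.39 and 3.53 above 0 in the Ptgs-/- and NK-depleted Ptgs-/- tumors, Il10 stands above 0 by 0.95 only in the intact Ptgs-/- tumors, and Spp1 stands below 0 in both.

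The wider pathways were then counted from lists, which were chosen with earlier results of these data known. Of 19 tested genes of alternative activation, 12 rose and 0 fell in Ptgs-/- over Ptgs+/+ tumors, beside 12.1% of all genes that rose and 11% that fell. The largest rise was that of Ccl17, a chemokine of T helper type 2 responses, from a mean of 0.496 to 15.2 CPM (log2 fold change 4.77, SE 0.48, adjusted p = 0.000117). Irf4, a transcription factor of the program, Mgl2, a lectin, and the chemokines Ccl22 and Ccl24 were also among the 12. In the same comparison 11 of 14 macrophage and 4 of 7 dendritic cell markers rose. Of 5 monocyte markers 3 rose and 1 fell. The part of these cells in the counts of the lists was not tested. Il4 and Il13 did not pass the filter on low counts. In the NK-depleted tumors 10 of the 19 were still higher than in Ptgs+/+ tumors, beside 6.63% of all genes, with a log2 fold change of 3.30 for Ccl17; without NK-depleted replicate 3 the count was 6. Between the Ptgs-/- groups 0 rose and 1 fell, beside 0.921% and 0.515%: Ccl22, by 1.36 on the log2 scale (log2 fold change -1.36, adjusted p = 0.0456), which lost the call in 9 of 10 fits that left out 1 library, that is, without any library but Ptgs+/+ replicate 3 (adjusted p up to 0.2).

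Classical activation genes rose as well. Of 21 tested, 14 rose and 3 fell in Ptgs-/- over Ptgs+/+ tumors, beside the same 12.1% and 11% of all genes. The largest rise was that of Cxcl9, an interferon-γ-induced chemokine, from 2.72 to 31.0 CPM (log2 fold change 3.44, SE 0.34, adjusted p = 0.000101), and the largest fall that of the cytokine Il6 (-3.39, SE 0.56, adjusted p = 0.00157), with Il1b and Socs3 as the others that fell. After NK depletion 0 rose and 4 fell relative to Ptgs-/- tumors, beside 0.921% and 0.515% of all genes. Cxcl9 again led (-1.63, adjusted p = 0.0386, lost in 6 of 10 fits that left out 1 library, up to 0.186). That count of 4 rested on single libraries. It was 0 without Ptgs-/- replicate 2 or NK-depleted replicate 2 or 3, and 8 without Ptgs-/- replicate 1. Without Ptgs+/+ replicate 4, Ptgs-/- replicate 3 or NK-depleted replicate 1 it was 1. The count also moved with the method, to 8 with DESeq2 and 9 without a filter or with the likelihood ratio test. It was 1 with at least 10 counts in every library or the code as a term. With those 2 groups alone it was 2, and within EB046 it was 0. In the NK-depleted tumors 7 were higher and 4 lower than in Ptgs+/+ tumors, beside 6.63% and 5.87%, where Cxcl9 stood at 1.82 and Il6 at -2.13. Il6 lost that call without NK-depleted replicate 1 (adjusted p = 0.0597) or 2 (0.0699), and the count of 4 was then 1; it was 2 without NK-depleted replicate 3 or Ptgs+/+ replicate 1, 2 or 4. Nos2 itself, the usual mark of the program, did not pass in any comparison.

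Of 8 genes around the arginine enzymes, 1 rose and 2 fell in Ptgs-/- over Ptgs+/+ tumors, beside 12.1% and 11% of all genes, with 1 of 8 close to the share of all genes. The 2 that fell numbered 0 without Ptgs-/- replicate 2 or 3 and 1 without Ptgs+/+ replicate 1 or 2. Gch1, which makes the cofactor of Nos2, rose by 0.44 (adjusted p = 0.0472, lost in 7 of 10 fits that left out 1 library, up to 0.126), and Odc1, the enzyme of polyamine synthesis downstream of Arg1, had the largest fall (-0.60, adjusted p = 0.0272, lost without Ptgs+/+ replicate 1 or 2 or Ptgs-/- replicate 2 or 3, up to 0.118). Of 12 scavenger and tissue macrophage genes, 3 rose and 1 fell (2 without Ptgs+/+ replicate 4 or Ptgs-/- replicate 1 or 2), beside the same shares. Timd4, a receptor for dying cells, had the largest rise (1.58, adjusted p = 0.0212, lost without Ptgs+/+ replicate 1 or 2 or Ptgs-/- replicate 2, up to 0.135), and the iron exporter Slc40a1 fell (-2.05, adjusted p = 0.000533). In NK-depleted tumors 4 of these were lower than in Ptgs+/+ tumors, beside 5.87% of all genes (1 without NK-depleted replicate 1 and 2 without NK-depleted replicate 2), the scavenger receptor Marco most (-2.28, adjusted p = 0.0159, lost without NK-depleted replicate 1 or 2, up to 0.065).

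The next counts, also for Ptgs-/- over Ptgs+/+ tumors, stand beside 12.1% of all genes that rose and 11% that fell. Around Il10, its receptor chain Il10ra rose (1.25, SE 0.13, adjusted p = 0.00016) and Nfil3, a transcription factor that IL-10 induces, fell (-0.73, adjusted p = 0.00315), in a list of 8 with 2 higher and 2 lower (1 lower without Ptgs-/- replicate 1 or 3). Around Trem2, 6 of 14 genes rose and 3 fell. The lysosomal glycoprotein Gpnmb had the largest rise (0.91, adjusted p = 0.0498, lost in 7 of 10 fits that left out 1 library, up to 0.178), and Trem1, a relative of Trem2 found on neutrophils and monocytes, had the largest fall (-3.53, adjusted p = 8.47e-05), beside the neutrophil marker sums given for Spp1. Of 8 receptor subunits for osteopontin, 1 moved in each direction, near those shares. Itga4 rose (1.18, adjusted p = 0.00205) and Itgb5 fell (-0.47, adjusted p = 0.04, lost in 6 of 10, up to 0.177). Of 5 genes for partners of VISTA and related checkpoints, 3 rose, with Cd274, which encodes PD-L1, first (1.11, adjusted p = 0.0171, and 0.0662 without Ptgs-/- replicate 1), and the VISTA ligand Selplg was higher in NK-depleted than in Ptgs+/+ tumors (0.53, adjusted p = 0.0289, lost in 5 of 10, up to 0.0969).

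**Figure D4:**
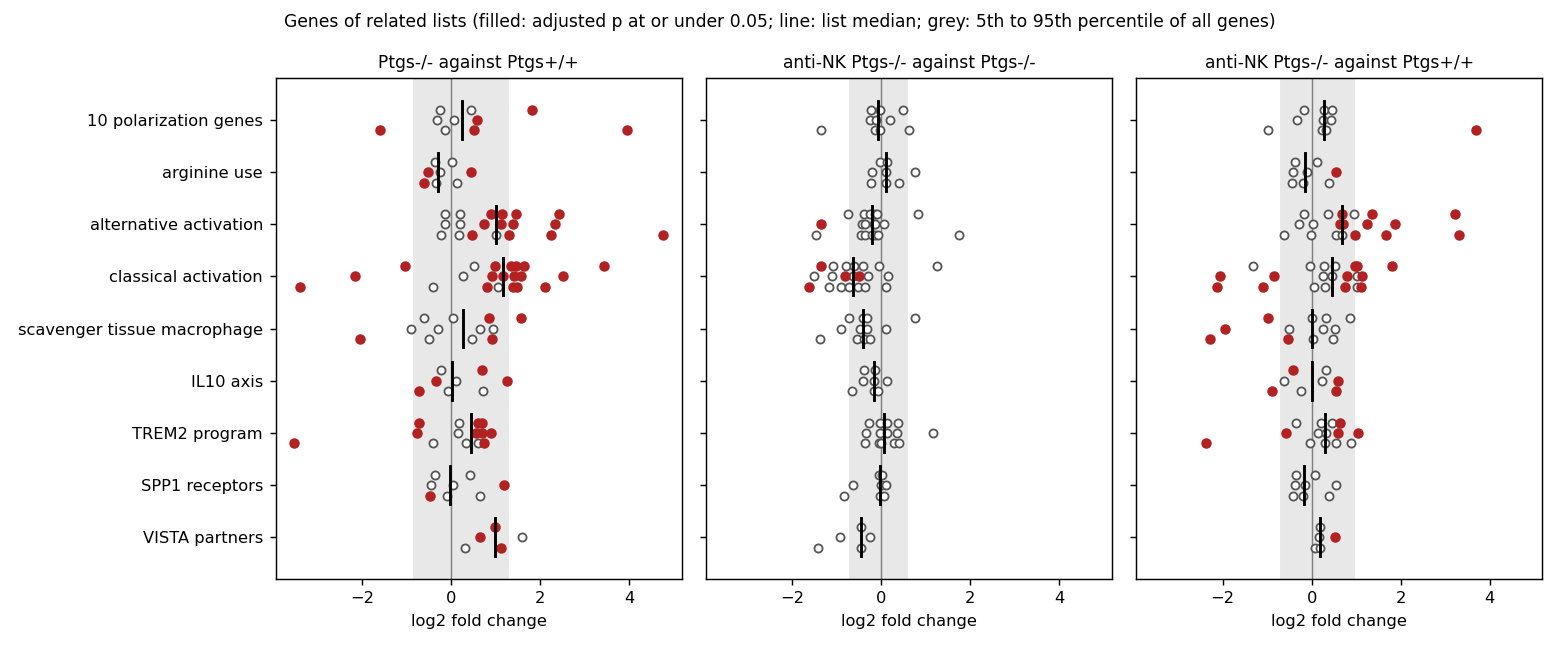
Log2 fold change of every tested gene (points) of the 10 polarization genes and 8 related lists in the 3 comparisons; filled red points have an adjusted p of 0.05 or less, black lines are list medians and the grey band runs from the 5th to the 95th percentile of all genes. In Ptgs-/- against Ptgs+/+ tumors 12 of 19 alternative and 14 of 21 classical activation genes are filled on the right of 0, and in the middle panel few points are filled.

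The genes whose levels followed each of the 10 most closely over the 10 tumors were found by the root mean square difference of standardized log2(CPM + 1), where 0 is an identical pattern. Retnla was followed most closely by Ear2 (0.12), then by the coagulation factor gene F7 (0.16) and Phf20l1 (0.21). Ear2 belongs to a family of near-identical genes, so its counts are less certain. Il10 was followed by Arrb2 (0.14), Fcer1g (0.19), the common γ chain of Fc receptors, and Enox2 (0.21). Trem2 was followed by Cd180 (0.24), a Toll-like receptor relative, Prdm8 (0.25) and Lpxn (0.26), and Vsir by Smim5 (0.16), Abca9 (0.19) and 6430550D23Rik (0.19).

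Spp1 was nearest to Lclat1 (0.19), Actn1 (0.24) and Pak1ip1 (0.24), and Nos2 to Cpeb4 (0.14), Spcs3 (0.27) and Crtc2 (0.29). For Arg1 the nearest were Saysd1 (0.43), Esm1 (0.43) and Egln3 (0.44), a hypoxia-induced prolyl hydroxylase, for Mrc1 Med11 (0.29), Nckipsd (0.31) and Snap29 (0.31), for Cd163 Mcoln2 (0.34), Col28a1 (0.35) and Ydjc (0.37), and for Chil3 Slc35b2 (0.55), Cfap43 (0.56) and Exosc1 (0.59). These are descriptions over 10 tumors of 3 groups, and when ranks replaced the standardized values only 6 of the 30 neighbours stayed.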

How the data were processed

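Bulk tumor RNA was sequenced with the Lexogen QuantSeq 3′ FWD kit, which reads the 3′ end of transcripts, so counts do not scale with gene length. Per the study's methods the authors trimmed 12 bases and adapters, aligned reads with STAR to GRCm38 and counted them per gene with featureCounts on Ensembl annotation 86; how multimapping reads were handled is not given in the sources used here. The deposited matrix holds raw counts of reads for 45706 Ensembl identifiers, of which 45143 were named with GENCODE M21. The titles carry codes (EB042, EB046), whose meaning the labels do not give. Nothing says that the libraries of a group were tumors of separate experiments beyond those codes, so p-values measure the spread between these libraries.

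Counts were fitted with edgeR 4.0.16 in R 4.3.3 (TMM, filterByExpr, quasi-likelihood test, all 10 libraries in 1 model), with Benjamini-Hochberg adjustment over 14550 genes. Rose and fell mean an adjusted p of 0.05 or less; the study's own fold threshold, a log2 fold change of 1.5, was applied as well. CPM is counts over the library total. Limits set by 3 counts cover counting error only. Totals ran from 8150556 to 12839174 counts. On simulated counts for the Ptgs-/- against Ptgs+/+ comparison (14340 genes, 200 changed by a log2 fold of 2), 98.5% of the changed genes passed both thresholds, and 4 unchanged genes did. The changed genes were drawn only from genes above a set mean level, which Il10 and Nos2 did not reach. That share does not apply to them, nor to changes smaller than the simulated one. Alternatives were DESeq2 1.42.0, library size alone, no filter, at least 10 counts in every library, a model with the code of the titles added, EB046 alone, 2 groups alone, edgeR's likelihood ratio test, a replicate block and leaving out each library.

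The members and lists were chosen with earlier results of these data known. Genes named are the 10 members, Ptgs1, Ptgs2 and Ncr1 as checks of the labels, the largest rise and fall of each list among genes that passed, and the 3 nearest neighbours of each member; Irf4, Mgl2, Ccl24, Il1b, Socs3, Il4 and Il13 and the markers were named after their values were seen.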

Additional observations from a re-analysis of the deposited data

How the results depend on the processing

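Among the values of the 10 genes under other settings, 546 stayed on their side of the threshold, 17 passed it where the reported fit did not and 4, all for Vsir, no longer passed; none of those called changed sign. Retnla, Spp1 and Trem2 passed in Ptgs-/- over Ptgs+/+ tumors under all 19 settings and Il10 under the 18 that kept it, since at least 10 counts in every library removed it. Called members over NK-depleted Ptgs-/- against Ptgs+/+ tumors, 1 as reported, numbered 3 with DESeq2, no filter, the likelihood ratio test or those 2 groups alone, and 2 with library size alone or at least 10 counts in every library; between the Ptgs-/- groups the likelihood ratio test called 1 and the reported fit 0. The causes were not tested.

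Over all genes, calls in Ptgs-/- over Ptgs+/+ tumors were 3360, and 2222 within the code EB046. Between the Ptgs-/- groups they were 209, and 383 with DESeq2, 408 without a filter, 42 with at least 10 counts in every library (fewer genes tested), 403 with the likelihood ratio test and 93 within EB046. Leaving out 1 library gave 2062 to 3881, 106 to 411 and 909 to 2116 calls in the 3 comparisons in the order of the report. For the members it gave 4 to 5, 0 to 1 and 1 to 3, and past both thresholds 1 to 3, 0 to 1 and 1 to 1. Nearest neighbours shared with the ranks numbered 6 of 30.

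Tumors share replicate numbers across groups. The deviations of same-numbered tumors from their group means correlated at 0.05, 0.03 and 0.01 between the Ptgs-/- groups and at -0.19 to 0.36 and -0.24 to 0.17 between these and Ptgs+/+ tumors, in no comparison over 0.1 in every pair, so the numbers were not taken to pair them. With the number as a replicate block, 5, 0 and 1 members were called, as without it, and 3237, 195 and 1769 genes. With 3 or 4 tumors a group, Nos2 and Chil3 had the largest SEs of the 10 genes in Ptgs-/- over Ptgs+/+ tumors (0.67 and 0.51). Il10, like them at under 15 CPM, had an SE of 0.36.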
